A study of Mus musculus with 12 samples.

Results

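The AP-2 family of mouse has 5 members, Tfap2a, Tfap2b, Tfap2c, Tfap2d and Tfap2e, which encode AP-2alpha, AP-2beta, AP-2gamma, AP-2delta and AP-2epsilon. AP-2 proteins bind GC-rich DNA as dimers through a basic helix-span-helix domain that the members share, and they activate or repress transcription. Tfap2a and Tfap2c are known from skin, neural crest and mammary epithelium, Tfap2b from kidney, neural crest and luminal mammary cells, Tfap2d from the midbrain and retina, and Tfap2e from the olfactory system. Tfap2a and Tfap2c have long been studied as regulators of ERBB2 and of the estrogen receptor in breast cancer.

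The members were found on Agilent whole mouse genome arrays as every gene probe assigned to 1 of the 5 genes, which gave 9 of 41174 gene probes, for 5 of 27670 gene names on the array. The files carry the older symbols Tcfap2a to Tcfap2e. The family had been picked with its ratios in these arrays known, above all the difference in size between the Tfap2b probes. Its tumor over pool values are therefore a description, and no p-value is attached to them.

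The study hybridised mammary tumors labelled ShcA-null against 1 pooled RNA of NIC mammary tumors. ShcA, the product of Shc1, is an adaptor that couples receptor tyrosine kinases to Ras. In the NIC model the MMTV promoter drives activated Neu (ErbB2) together with Cre recombinase in mammary epithelium, so that Shc1 loss is directed to the Cre-expressing cells and the other cells of a tumor keep the gene. All groups thus carry the NIC transgene. The labels name 8 tumors, and give no strain, age, Shc1 allele or number of tumors in the pool. A first array of every tumor carried tumor RNA in Cy5, and tumors 1 to 4 had a second array with the dyes swapped, 12 arrays in all. The first arrays of tumors 1 to 4, those of tumors 5 to 8 and the 4 swapped arrays were each on a slide of their own, so that dye orientation and slide cannot be told apart on the swapped arrays. The pool counts as 1 control sample, and the spread given below leaves out that of the pool. The SD over labelled tumors also holds array, slide and dye differences. Values of tumors 1 to 4 average both orientations, and those of tumors 5 to 8 come from 1 array each.

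Not all arrays go with their labels. For this check each array was taken, probe by probe, as its deviation from the mean of the arrays in its dye orientation. Over 24869 probes the swapped array labelled tumor 1 correlated best with the first array of tumor 1 (r = 0.769), but those labelled 2, 3 and 4 correlated best with the first arrays of tumor 3 (r = 0.891), tumor 4 (r = 0.601) and tumor 8 (r = 0.800). The correlations of their deviations with those of their own labelled tumors were -0.14, -0.55 and 0.08. These are not correlations of the ratios themselves, and deviations from a shared mean tend to push unmatched arrays towards negative values. By these best matches, the averages of labelled tumors 2, 3 and 4 mix arrays of different tumors, and tumors 3, 4 and 8 each enter more than 1 average. The n = 8 values by labelled tumor are then not independent, and their SDs and p-values do not take this into account. First-array values are therefore given beside the values averaged by labelled tumor for the members and for the other genes named with a difference. The mean of the targeted gene Shc1 was 0.12 ± 0.648 on the log2 scale (SD, n = 8), with -2.05 on the first array of tumor 3 and between -0.00 and 0.71 on the other first arrays. On the swapped arrays it was at -2.22 on that labelled tumor 2, which correlated best with tumor 3, and between 0.45 and 0.74 on the others. The labels do not say whether the probe lies in the deleted part of the gene, so it does not check whether a tumor was null. The probe that represents Erbb2, the NIC oncogene, was at 0.13 ± 0.680 (SD, n = 8; 0.38 on first arrays), and another Erbb2 probe was at -0.40 ± 1.31 (SD, n = 8; -0.28 on first arrays). The epithelial markers Epcam, Krt8, Krt18 and Krt19 were well above background in tumor and pool on all 12 arrays. Of 20341 genes tested with limma, 3699 (18.2%) passed an adjusted p of 0.05, 1436 of them higher (7.06%) and 2263 lower (11.1%) in the tumors. With arrays centred on their median in place of loess, the split was 2535 higher and 1038 lower, and the median of all genes moved from -0.02 to 0.17 on the log2 scale.

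Tfap2b was the member that stood farthest from the pool. Its probes A_51_P248345 and A_51_P248344 lie on chr1:19424657-19424716 and chr1:19424697-19424756 (mm7, plus strand), and the file assigns both to the same transcript. The third probe, A_52_P352771, lies at chr1:19426805-19426864 on the same strand and is assigned to another Tfap2b transcript. Exon annotation of that build was not used here. The first pair share 20 bases, shown in capitals, because these probes read a common stretch.
A_51_P248345, last 30 bases: gctttggaggAATTATATTAGGTAGAATAC
A_51_P248344, first 30 bases: AATTATATTAGGTAGAATACacatacaatc
Both probes are poor in G and C, at 26.7% for A_51_P248345 and 25% for A_51_P248344, against 45% for A_52_P352771.

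On the first arrays of tumors 1 to 8, the log2 ratio of A_51_P248345 was -3.67, -3.64, -3.29, -4.21, -3.61, -3.52, -3.93 and -4.05. All 8 tumors lay far below the pool, within 1 log2 unit of each other. The swapped arrays labelled tumors 1 to 4 gave -3.67, -2.49, -3.74 and -3.46, so that the direction held in both dye orientations. The array labelled tumor 2 was the least negative of the 12. It is the one that correlated best with tumor 3, which had the least negative first array with this processing. In the authors' deposited table that was tumor 6 (-3.42), with tumor 3 at -3.48. The cause of the value on the array labelled tumor 2 was not tested.

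The mean of A_51_P248345 by labelled tumor was -3.65 ± 0.306 (SD, n = 8), 12.6-fold lower than in the pool. Over first arrays it was -3.74 ± 0.302 (SD, n = 8), 13.4-fold. Of the 20341 genes, each taken at its representing probe, 2 had a lower mean than Tfap2b by this probe. Its SD over first arrays was at the 21.8th percentile of all genes, so that with this processing its ratios varied less than those of most genes. By labelled tumor its SD was 0.534 with the scanner's own processed ratios, for which no percentile was taken. The other Tfap2b probes, A_51_P248344 and A_52_P352771, had first-array SDs of 0.397 and 0.410. Their means by labelled tumor were -1.20 and -1.21. In bulk tumors, fewer cells that express a gene and less of its RNA per cell cannot be told apart. The authors' deposited table gave -4.14 to -3.42 on the first arrays and -4.02 to -2.56 on the swapped arrays.

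The spot intensities behind this ratio were read in both channels. On the first arrays the raw intensity of A_51_P248345 in the pool channel was 1759 to 2259 scanner units, and that in the tumor channel was 212.5 to 317 units. On the swapped arrays the pool gave 914 to 1188 units and the tumors 81.6 to 233.5 units. The pool was well above background on 12 of 12 arrays and the tumors on 9, namely all 8 first arrays and 1 swapped array. The pool therefore had a clear signal throughout, while the tumor signal was near the limit of the assay on 3 swapped arrays, where the ratio depends on how background is treated. With the scanner's own processed ratios the mean was -4.45 ± 0.534 (SD, n = 8).

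**Figure D1:**
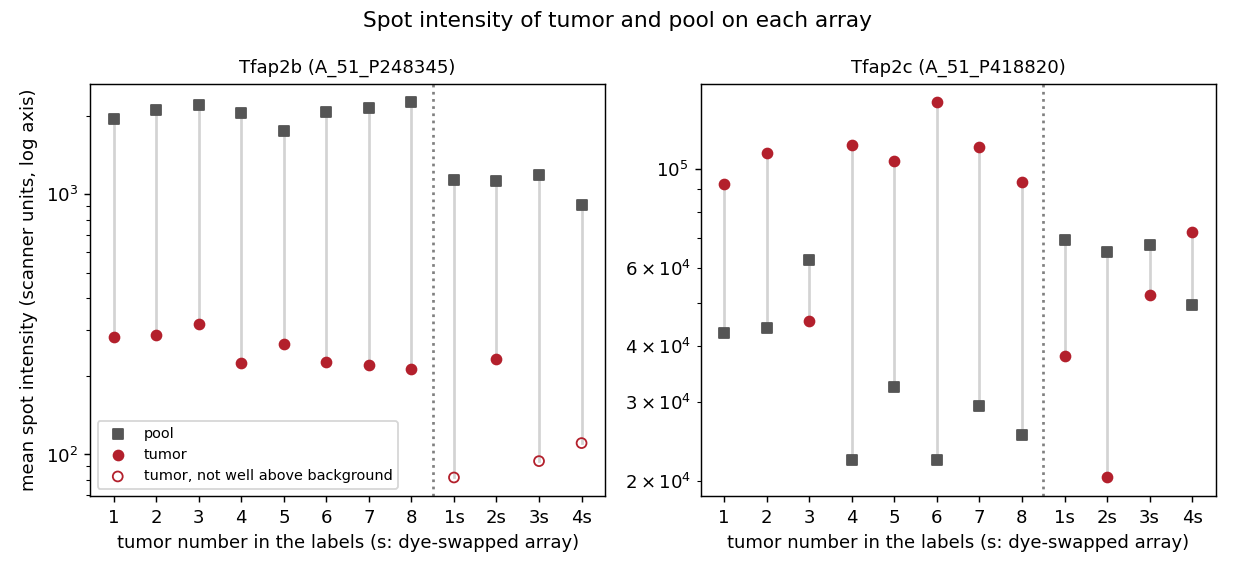
Raw mean spot intensity (scanner units, log axis, before dye normalization) of tumor and pool on each of 12 arrays, for Tfap2b A_51_P248345 and Tfap2c A_51_P418820; open circles mark tumor spots not well above background. For Tfap2b the pool exceeded the tumor on all 12 arrays (1759 to 2259 against 212.5 to 317 units on first arrays), whereas for Tfap2c the order of tumor and pool changed between arrays.

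The overlapping probe A_51_P248344 was also below the pool in all 8 tumors. Its mean was -1.20 ± 0.478 (SD, n = 8), with first arrays from -2.10 to -0.84 and swapped arrays from -0.51 to -0.29. Its first and swapped arrays did not overlap. The tumor signal of this probe was well above background on 2 of 12 arrays (the first arrays of tumors 7 and 8) and the pool on 9, so that most of its ratios compare a dim pool spot with background. Their size is set by the background and gives no measure of the difference. With the processed ratios its mean was -2.65.

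The probe for the other Tfap2b transcript, A_52_P352771, had a mean of -1.21 ± 0.397 (SD, n = 8), 2.31-fold, and was below 0 in all 8 tumors. Tumor 6 was at -0.32, apart from the other 7 tumors at -1.54 to -1.01. Pool intensities of this probe were 291.5 to 355 units on first arrays, close to tumor intensities of 161 to 342 units. On swapped arrays the pool gave 253 to 389 units and the tumors 116 to 192 units. The tumors were well above background on 10 of 12 arrays, with 6 of the 8 first arrays among them, and the pool on 12. With the processed ratios the mean was -1.77. The 3 Tfap2b probes thus shared a direction in every tumor.

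**Figure D2:**
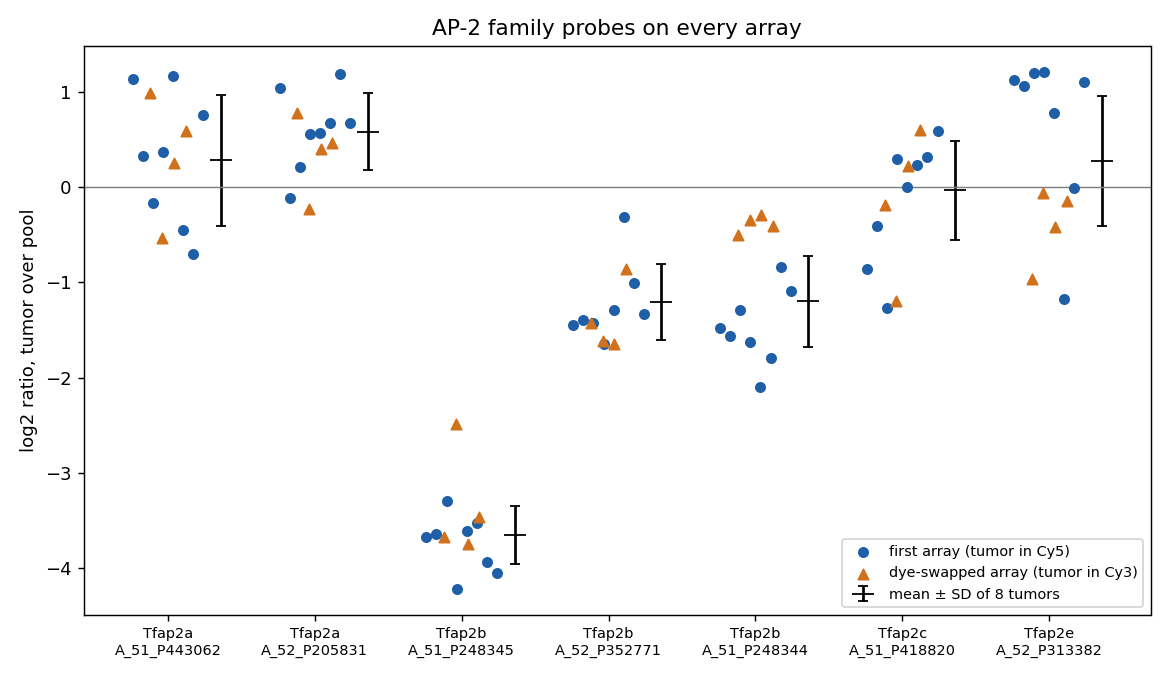
Log2 ratio of tumor over pool for the 7 AP-2 family probes that passed the filter on dim probes, with circles for first arrays, triangles for dye-swapped arrays, and bars for the mean ± SD of 8 tumors. All points of the 3 Tfap2b probes lie below 0, those of A_51_P248345 near -3.65, and the Tfap2e triangles all lie below 0 while most of its circles lie near 1.

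Tfap2a, the founding member of the family, was measured by a pair of probes on chromosome 13, minus strand. A_52_P205831 lies at chr13:40156450-40156509 (mm7). The coordinates of A_51_P443062, chr13:40164742-40167962, span 3221 bases for a probe of 60 bases, so that its sequence, shown because it crosses this gap in the genome, is read from separate stretches of the gene.
A_51_P443062: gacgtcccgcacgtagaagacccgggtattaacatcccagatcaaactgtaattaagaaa
A_52_P205831, which represents the gene, was at 1.04, -0.12, 0.20, 0.55, 0.57, 0.67, 1.18 and 0.67 on the first arrays of tumors 1 to 8. The level was above the pool in 7 of 8 tumors, and tumor 2 was the exception. The swapped arrays labelled 1 to 4 gave 0.78, -0.23, 0.39 and 0.46. The mean was 0.58 ± 0.405 (SD, n = 8), 1.49-fold, and 0.60 ± 0.418 (SD, n = 8) over first arrays. On the first arrays of tumors 5 to 8 the mean was 0.77, against 0.42 in tumors 1 to 4, and these sets were on different slides. The other probe, A_51_P443062, had the opposite order, at 0.19 in tumors 5 to 8 and 0.41 in tumors 1 to 4.

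A_51_P443062 had a mean of 0.28 ± 0.691 (SD, n = 8) and was above 0 in 5 of 8 tumors. On first arrays the Tfap2a probes gave the same sign in tumors 1, 4, 5 and 8. They gave opposite signs in tumors 2, 3, 6 and 7, with A_51_P443062 at 0.33, -0.17, -0.45 and -0.70 where A_52_P205831 was at -0.12, 0.20, 0.67 and 1.18. Over the 8 tumors the r between them was -0.01 (exact permutation p = 0.974, adjusted p = 0.978; rho -0.02, exact permutation p = 0.977, adjusted p = 0.977) and 0.54 without the 2 tumors farthest from the median. Both probes were well above background in tumor and pool on all 12 arrays. The tumor spots of A_51_P443062 were at their dimmest on first arrays in tumors 6 and 7, at 262 and 248 units. Tumor 7 also had the highest median log2 ratio of the T cell markers (3.40, against 0.14 to 1.08 in the others) and of the B and plasma cell markers (3.96, against 0.32 to 1.66). In the T cell list 2 of 6 markers passed the test, 1 in each direction, and in the B and plasma cell list 2 of 5 were higher. The part of these cells in the Tfap2a values was not tested.

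Tfap2c encodes AP-2gamma, a regulator of luminal mammary epithelium, and its probe A_51_P418820 lies at chr2:172351014-172351073 (mm7, plus strand). The first arrays of tumors 1 to 8 gave -0.86, -0.41, -1.27, 0.29, -0.00, 0.23, 0.32 and 0.58. The swapped arrays labelled 1 to 4 gave -0.19, -1.19, 0.22 and 0.60. Tumors fell on both sides of the pool, 4 above and 4 below, with a mean of -0.03 ± 0.518 (SD, n = 8). First arrays of tumors 1 to 4 averaged -0.56 and those of tumors 5 to 8 averaged 0.28, and these sets were on different slides.

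The Tfap2c spots were bright in both RNAs, at 45682 to 140900 units in the tumors and 22216 to 62579 units in the pool on first arrays. The raw tumor intensity was above the raw pool intensity on 7 of 8 first arrays and on 1 of 4 swapped arrays. Loess, which fits the dye bias at each intensity, brought the mean near 0, and centring each array on its median instead gave 0.66. The direction of Tfap2c against the pool thus depended on the normalization. The order of tumors did too: with the authors' deposited table tumor 6 had the highest of the first-array values (0.51), and with loess tumor 8 did.

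Tfap2e was measured well above background in both RNAs on all 12 arrays by A_52_P313382 at chr4:126180064-126180123 (mm7, minus strand). This probe is rich in G and C (75%). The first 30 bases show it, with G and C in capitals.
A_52_P313382, first 30 bases: GGGtCCCGaCGCCaCCGCtGCCtttCCGCa
Its ratios in tumors 1 to 8, in order and from first arrays, were 1.12, 1.06, 1.19, 1.21, 0.77, -1.18, -0.01 and 1.10. Tumors 6 and 7 stood below the other 6. The swapped arrays labelled 1 to 4 gave -0.96, -0.07, -0.42 and -0.15, all below 0, where the first arrays of the same labelled tumors were all above 1.

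The mean of Tfap2e by labelled tumor, 0.27 ± 0.685 (SD, n = 8), therefore joins values of opposite sign. Tumor 1, whose swapped array went with its label, had 1.12 in one orientation and -0.96 in the other. A limma fit over all 30695 probes with a term for the orientation (first over swapped), and with the best-matching arrays paired, gave 1.53 ± 0.140 (SE) for this probe (adjusted p = 5.3e-07). With the labelled pairs it gave 1.09 ± 0.411 (SE, limma adjusted p = 0.115). The best-matching pairs were chosen by likeness in these same data. SEs and p-values with them do not take that choice into account and can be too small, here and wherever that pairing is used below. The background is high: 67.3% of all probes passed for this term with the best-matching pairs and 10.1% with the labelled pairs. Of the 7 member probes 4 passed with the best-matching pairs: Tfap2e, A_51_P248344 (-0.99 ± 0.0873 SE, limma adjusted p = 3.8e-07), A_51_P248345 (-0.46 ± 0.0978 SE, limma adjusted p = 0.00085) and Tfap2a A_52_P205831 (0.27 ± 0.0708 SE, limma adjusted p = 0.0041). With the labelled pairs A_51_P248344 passed (-1.08 ± 0.212 SE, limma adjusted p = 0.0072). For A_51_P248345 this term was small beside its ratio, and for Tfap2e it was larger than the ratio.

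The other Tfap2e probe, A_52_P554594 (chr4:126160843-126160902, mm7), and the only Tfap2d probe, A_51_P398833 (chr1:19338557-19338616, mm7, 45% G and C), did not pass the filter. The Tfap2d spots were not well above background in either RNA on any of the 12 arrays. Their intensities on first arrays were 78.1 to 112.8 units in the tumors and 65.2 to 84.4 units in the pool. A_52_P554594 was well above background on 1 array, in the tumor channel. No fold is given for these probes.

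Among the 4 member genes tested in the fit over all genes, where 18.2% passed, Tfap2a was called higher and Tfap2b lower, and Tfap2c and Tfap2e were not called. Nothing is read from this count or from the call of any single member, because the members were chosen from these ratios. The calls below only describe how the fit depends on the setting. Tfap2a was not called without tumor 1, without tumor 4, without tumor 8, on swapped arrays only, in tumors 5 to 8, on the first arrays of tumors 1 to 4 or with the orientation term and arrays paired by likeness. Tfap2e was called higher without tumor 6 and on the first arrays of tumors 1 to 4.

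The members were set against each other over the 8 values by labelled tumor, 10 pairs of probes in all. By the best matches these values are not independent, and the permutation p-values treat them as if they were. The largest correlation was between Tfap2b (A_51_P248345) and Tfap2c, at r = -0.81 (exact permutation p = 0.00955, adjusted p = 0.0955) and rho = -0.88 (exact permutation p = 0.00724, adjusted p = 0.0724). It missed the threshold after adjustment. Without the 2 tumors farthest from the median r was -0.56, and on first arrays alone it was -0.73 (exact permutation p = 0.0430, adjusted p = 0.430; rho -0.69, exact permutation p = 0.0694, adjusted p = 0.626). With the authors' value table r was -0.39 and with the processed ratios -0.40. A slide holds 4 tumors, too few for a value within it. Its strength thus varied with the processing. Tfap2a and Tfap2b had r = -0.77 (exact permutation p = 0.0305, adjusted p = 0.153; rho -0.74, exact permutation p = 0.0458, adjusted p = 0.229), which became -0.23 without the 2 farthest tumors and -0.37 on first arrays.

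**Figure D3:**
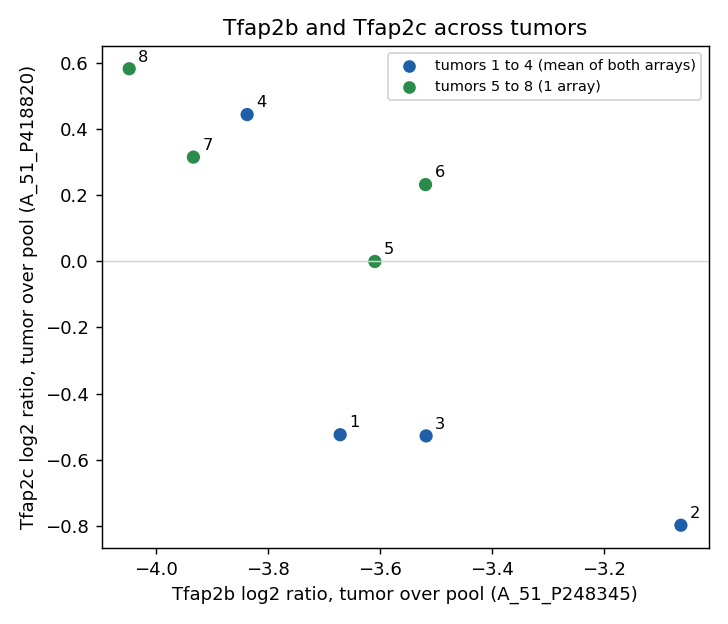
Log2 ratio of Tfap2c against that of Tfap2b (A_51_P248345) in each of 8 tumors, numbered as in the labels and coloured by set. The points fall from upper left to lower right (r = -0.81, adjusted p = 0.0955 by exact permutation), with tumors 1 to 3 lowest in Tfap2c.

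Genes with the most similar pattern over the 8 tumors were looked for among 14353 genes with a value in each tumor and an SD of at least 0.3. For Tfap2b these were Lrrcc1 (r = 0.954), Col8a1 (0.948), Txn1 (0.935), AK037089 (0.924) and NAP034422-1 (0.921). On first arrays alone their r ranged from 0.322 for Txn1 to 0.819 for AK037089, and none of the 5 was among the top 5 with the authors' value table. For Tfap2a, by A_52_P205831, they were Rapgefl1 (0.979), Nkpd1 (0.970), Prom2 (0.967), Xrcc1 (0.967) and B630019K06Rik (0.964), of which 3 were also found with the value table. Their r on first arrays ranged from 0.513 for B630019K06Rik to 0.961 for Nkpd1. For Tfap2c they were Fzd9 (0.990), Shisa7 (0.969), Gbp2b (0.953), Aif1l (0.941) and Inpp5e (0.936), with r of 0.825 to 0.977 on first arrays and 1 of 5 found with the value table. These are the highest of many values over few tumors, given as a description.

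AP-2 factors act with partner proteins, among them the CITED and p300/CBP coactivators and the KCTD1 and KCTD15 inhibitors. The partner genes were listed from general knowledge, but with earlier results of these data known. Of 16 partner genes tested, 2 rose, none fell and 14 did not pass, where 18.2% of all genes passed (7.06% higher and 11.1% lower), and their median was 0.09 against -0.02 over all genes. Myc, the proliferation-driving transcription factor, rose by 0.61 ± 0.307 (SD, n = 8; limma adjusted p = 0.0082), and was above 0 in all 8 tumors. It also passed on first arrays (mean 0.48, limma adjusted p = 0.0371). Yeats4, a chromatin reader of acetylated histones, rose by 0.31 ± 0.184 (SD, n = 8; limma adjusted p = 0.0458), and its call was lost on first arrays (mean 0.31, limma adjusted p = 0.0528) and with the orientation term and arrays paired by likeness (0.30, limma adjusted p = 0.130). On first arrays 5 of 16 passed, 2 higher and 3 lower, where 22.6% of all 20330 genes passed (8.88% higher and 13.7% lower). The partner genes' median was 0.63 in tumor 6, against -0.08 to 0.22 in the other tumors. This tumor was also apart from the others in Tfap2b A_52_P352771 and had the lowest Tfap2e ratio on first arrays.

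The genes reported elsewhere as regulated by AP-2 factors were listed from general knowledge, but with earlier results of these data known, and 24 of 25 were tested. Of these 5 rose, 2 fell and 17 did not pass, with a median of 0.23, against the same shares over all genes (18.2% passed, 7.06% higher and 11.1% lower). Krt5 (1.33 ± 0.666, SD, n = 7; limma adjusted p = 0.0063) and Krt14 (0.86 ± 0.627, SD, n = 8; limma adjusted p = 0.0193) are the keratin pair of basal epithelium. Krt7, a simple-epithelium keratin, rose by 0.72 ± 0.669 (SD, n = 8; limma adjusted p = 0.0460). Esr1, the estrogen receptor, fell by 1.04 ± 0.838 on the log2 scale (SD, n = 8; limma adjusted p = 0.0252) and was below 0 in all 8 tumors. The remaining calls were Ccl2 (0.69 ± 0.440) and Mcam (0.53 ± 0.455), both higher, and Egfr (-0.52 ± 0.397), lower, each SD with n = 8. On first arrays alone the means were 1.52 for Krt5, 1.02 for Krt14, 0.84 for Krt7, -1.09 for Esr1, 0.75 for Ccl2, 0.57 for Mcam and -0.59 for Egfr. Other probes of these genes were closer to 0 for Krt7 (0.38), Esr1 (-0.25) and Mcam (0.11). With median centring Egfr was at -0.18 (limma adjusted p = 0.597).

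In the fit with the orientation term and arrays paired by likeness, Esr1 (limma adjusted p = 0.0267), Ccl2 (0.0234) and Mcam (0.0220) passed. Krt5 (1.24, limma adjusted p = 0.0648), Krt7 (0.57, 0.140), Krt14 (0.74, 0.241) and Egfr (-0.46, 0.0574) did not, with means on the same side of 0. On first arrays Krt14 had a limma adjusted p of 0.0624. Krt5 and Krt14 are also in the myoepithelial marker list, of which 3 of 7 rose, and whose median ran from 0.21 to 1.61 over the tumors. Esr1 is in the hormone-sensing luminal list, of which 2 of 5 fell (Esr1 and Gata3), with a median from -0.84 to 0.35 over the tumors and Pgr not tested. Gata3 was at -0.73 ± 0.410 (SD, n = 8; -0.92 on first arrays). Its call was lost with median centring (-0.09, limma adjusted p = 0.784) and with the orientation term and arrays paired by likeness (-0.67, limma adjusted p = 0.0843). The luminal list had 2 of 8 higher, Krt8 (0.85 ± 0.560, SD, n = 8) and Epcam (0.74 ± 0.686, SD, n = 8). Krt8 averaged 1.41 on first arrays and -0.66 on swapped arrays, and Epcam 1.25 and -0.68, a change of sign like that of Tfap2e. The part of cell composition and of dye in the target genes was not tested.

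**Figure D4:**
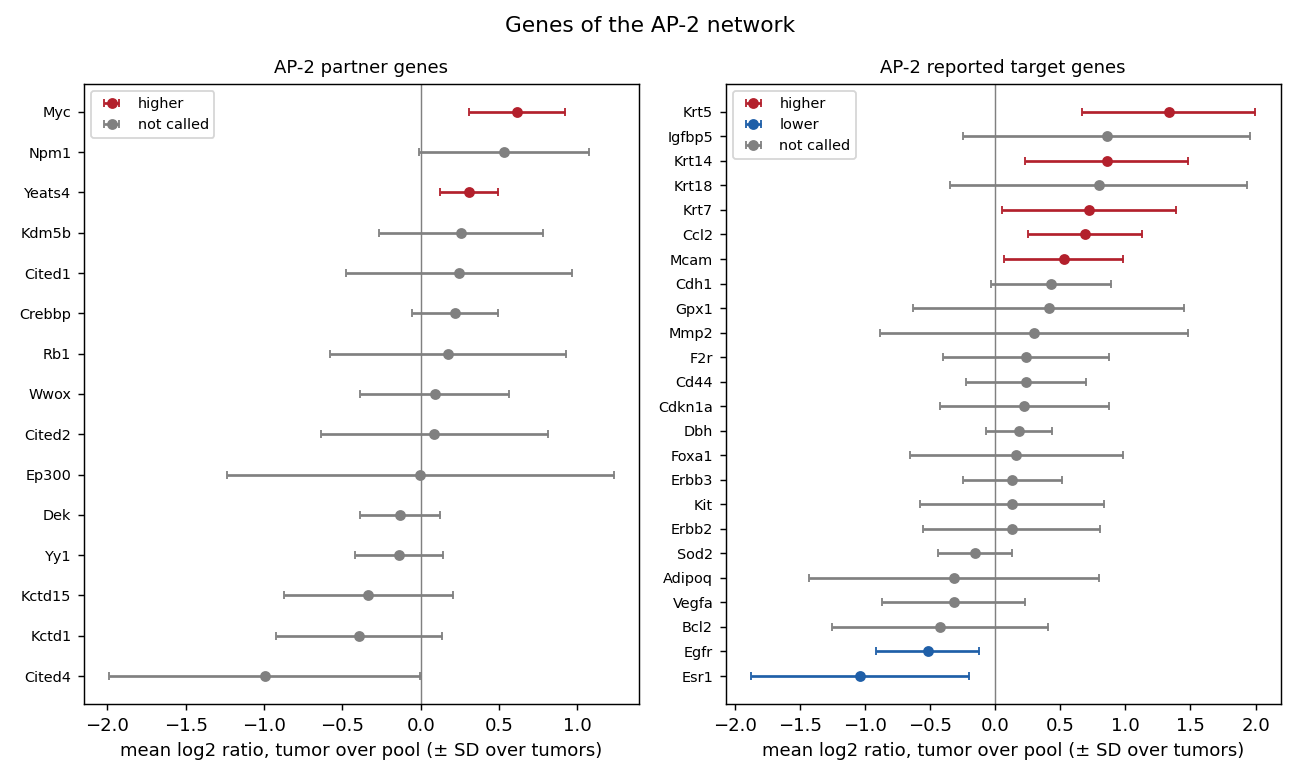
Mean log2 ratio of tumor over pool with SD over tumors for 15 of the 16 AP-2 partner genes and 24 reported target genes; red and blue mark genes higher or lower at a limma adjusted p under 0.05. Among partners Myc and Yeats4 were higher, and among targets 5 genes were higher and 2 lower.

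The motif GCCNNNGGC, a core recognized by AP-2 factors and the same on both strands, was searched in the 250 bases before each start in RefSeq promoters (GRCm38.p6). It occurred in 4509 of 32851 promoters (13.7%), and in 0 of the 7 promoters listed for members (Tfap2a, Tfap2b, Tfap2d and Tfap2e). By gene, 4163 of 27025 held it (15.4%), as did 9 of the 20 tested target genes with a listed promoter and 3 of the 6 called ones. The 3 are shown, with the motif in capitals, because they join a reported AP-2 target, a motif and a call. The 250 bases are those of Krt7 (chr15:101412153-101412402, plus strand), Mcam (chr9:44134408-44134657, plus strand) and 1 of the Esr1 starts (chr10:4611739-4611988, plus strand).
Krt7: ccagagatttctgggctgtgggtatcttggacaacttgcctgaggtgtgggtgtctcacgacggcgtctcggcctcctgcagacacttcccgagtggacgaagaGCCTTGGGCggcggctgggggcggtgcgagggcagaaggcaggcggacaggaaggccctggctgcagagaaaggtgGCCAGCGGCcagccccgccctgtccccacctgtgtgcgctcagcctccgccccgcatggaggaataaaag
Mcam: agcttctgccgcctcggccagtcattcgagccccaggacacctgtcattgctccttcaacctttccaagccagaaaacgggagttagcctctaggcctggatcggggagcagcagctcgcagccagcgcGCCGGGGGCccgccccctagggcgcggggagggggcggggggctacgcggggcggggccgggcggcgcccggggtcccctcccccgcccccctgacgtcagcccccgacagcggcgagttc
Esr1: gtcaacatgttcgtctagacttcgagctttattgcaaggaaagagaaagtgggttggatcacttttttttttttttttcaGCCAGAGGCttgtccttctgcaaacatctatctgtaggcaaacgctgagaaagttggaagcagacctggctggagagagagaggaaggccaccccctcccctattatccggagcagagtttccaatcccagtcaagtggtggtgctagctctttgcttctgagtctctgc
The matches start 146 and 70 bases before the Krt7 start, 121 before the Mcam start and 170 before the Esr1 start. A match describes these letters and says nothing of binding.

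Genes within 1 Mb of a member's probe, by the coordinates in the file, numbered 64 tested, of which 1 rose, 8 fell and 55 did not pass, with a median of -0.01. Over all genes 18.2% passed (7.06% higher and 11.1% lower). The direction of these calls depended on the normalization: with arrays centred on their median 5 were higher and 1 lower. Near Tfap2e 7 of 32 genes passed. There Eva1b rose by 1.00 ± 0.584 (SD, n = 8; limma adjusted p = 0.0079), with 1.34 on first arrays, and its call was lost with the orientation term and arrays paired by likeness (0.66, limma adjusted p = 0.570). Another Eva1b probe was at 0.26. In the same region AK034770 (-0.95 ± 0.541, SD, n = 8; -1.12 on first arrays), E330021A06Rik (-0.88 ± 0.654, SD, n = 7; -0.99 on first arrays) and AU040320 (-0.80 ± 0.226, SD, n = 8; -0.72 on first arrays) were lower. With median centring AU040320 was at -0.40 (limma adjusted p = 0.126) and E330021A06Rik at -0.84 (limma adjusted p = 0.0534), and their other probes were at -0.27 and -0.60. Around Tfap2c 0 of 22 passed the limma test after adjustment, and 4 had an unadjusted p under 0.05. Around Tfap2a 1 of 8 fell, the adaptor gene Nedd9 (-0.51 ± 0.237, SD, n = 8; limma adjusted p = 0.0104; -0.61 on first arrays). That call was lost with median centring (-0.16, limma adjusted p = 0.630), and another Nedd9 probe was at -0.19. Tfap2b and Tfap2d are neighbours and share 2 tested genes, known only by array names. Of these NAP102204-1, named after its values were seen and 48079 bases away, fell by 0.67 ± 0.445 on the log2 scale (SD, n = 8; limma adjusted p = 0.0163), with -0.81 on first arrays and -0.61 with median centring (limma adjusted p = 0.0507).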

How the data were processed

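The 12 arrays were scanned and quantified by the authors with Agilent Feature Extraction 9.5.3.1, per the file headers. Mean foreground and median local background intensities were deposited without normalization, and the deposited log10 ratios and flags (0 or 1) are those of the scanner software. A table of log2 ratios made by the authors was deposited too, already turned to tumor over pool. How it was normalized and centred is not stated in these sources. Its correlation with the ratios used was 0.973 to 0.995 over arrays, and its column medians were -0.09, -0.02, -0.08, -0.02, -0.06, 0.10, 0.10 and -0.01 for the first arrays and -0.01, -0.05, -0.00 and -0.00 for the swapped arrays.

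Intensities were corrected by normexp (offset 50) and loess in limma 3.58.1 under R 4.3.3, and outlier spots were left out. Some spots had a foreground over 50 units below their local background (up to 13 of 43379 gene spots, on 4 arrays). For the background fit their local background was replaced by the array's median background, and their ratios were then left out. That step was added after the data were seen: A_51_P248345 on the swapped array of tumor 1 had stood apart from the other arrays, and the cause was traced to such spots. With them kept the mean of that probe was -3.43 ± 0.628 (SD, n = 8), with tumor 1 at -2.29. The SD was 0.306 with them left out. Spots of a probe, then arrays of a labelled tumor, were averaged (n = 8), so that by the best matches some averages mix tumors and are not independent. Probes well above background in either channel on an array of at least 4 tumors were kept (30838), and a gene took its kept probe of highest intensity. Means were tested against 0 with lmFit and eBayes, with Benjamini-Hochberg adjustment over all genes. The test leaves out the pool's own spread, and nothing in the labels says the tumors came from separate animals. The p-values thus measure the spread between samples, which also holds array, slide and dye differences. The number of arrays limits the precision. Probes were named through RefSeq names of assembly GRCm38.p6 by accession (22951), symbol (6659) or older symbol (3109). The family members and all gene lists were chosen with earlier results of these data known. Named genes were all member probes, Shc1, Erbb2 and the epithelial markers as checks, the 5 genes most like each of 3 members, and up to 4 called genes of a list by size. Lists of adipocyte, fibroblast, macrophage, endothelial, skeletal muscle and keratinocyte markers had no gene past the limma test (0 or 1 per list at an unadjusted p under 0.05). A further marker list and 1 partner gene are not reported here. At an unadjusted p under 0.05, 6895 genes passed. Egfr, Ccl2, Mcam, Nedd9 and NAP102204-1 were named beyond that rule, after their values were seen. The fit was tested on simulated data.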

Additional observations from a re-analysis of the deposited data

Results flagged for a closer look

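In Tfap2b A_52_P352771, tumor 6 stood apart from the other 7 tumors, at -0.32 against -1.54 to -1.01 on the log2 scale. The median of the AP-2 partner genes was also apart in tumor 6, at 0.63 against -0.08 to 0.22 in the others. These were 2 of 17 values examined for a sample far from its group by Dixon's test, and chance alone gives about 1 such sample in 20 groups. Without tumor 6 the mean of A_52_P352771 was -1.34. The cause was not tested.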

How the results depend on the processing

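Over all genes, 1584 passed on the first arrays of tumors 1 to 4 and 216 on those of tumors 5 to 8, against 3699, with fewer tumors in the fit; leaving out a tumor gave 2270 (without tumor 4) to 4785 (without tumor 6). Of the partner genes 4 passed with median centring, 1 with both channels above background on every array, 5 on first arrays, 5 on swapped arrays, 4 with the dye term and labelled pairs, 1 with best-matching pairs, and 1 to 3 without a tumor (1 without tumor 2, 3, 4, 5, 7 or 8). On the first arrays of tumors 1 to 4 and of tumors 5 to 8, 0 passed limma's test, with 2 and 4 at an unadjusted p under 0.05. Of the target genes 3 passed on swapped arrays, 3 on first arrays of tumors 1 to 4, 0 in tumors 5 to 8 by limma (8 unadjusted), 4 with best-matching pairs, and 3 to 6 without a tumor (3 without tumor 4; 4 without tumor 1, 3, 7 or 8). Of the genes near members 3 passed on first arrays of tumors 1 to 4, 0 in tumors 5 to 8 by limma (12 unadjusted), 14 with labelled pairs, and 7 to 16 without a tumor (16 without tumor 6). Tfap2c changed sign with median centring (0.66). Fits of 4 tumors have fewer samples; for the other changes the cause was not tested. The other counts stayed within 1.5 times, but with median centring the genes near members split 5 higher and 1 lower. None of the 5 genes most like Tfap2b was found again with failed-background spots kept, with the processed ratios or with the value table. No paired analysis was possible because the tumors have no matched control samples.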
